A study of Oreochromis niloticus and Pundamilia nyererei with 6 samples.

Results

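Liver transcripts to which the assembly gave no strand, on genome sequences where no transcript with a strand was assembled, are described here for 2 cichlid fishes. They were found in each species on its own transcript set: a transcript was taken when no strand was listed for it and its sequence carried no plus or minus transcript. In Pundamilia nyererei (PN) the rule found 1933 of 45966 transcripts, which lay on 1341 of the 2984 sequences that carried any transcript. In Oreochromis niloticus (ON) it found 439 of 41456 transcripts, on 285 of 942 sequences. These transcripts were 10.7% of the 18134 strandless transcripts of PN and 5.24% of the 8372 strandless transcripts of ON. The remaining strandless transcripts, 16201 in PN and 7933 in ON, shared their sequence with at least 1 stranded transcript and serve below as the set for comparison.

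The livers came from tank-reared males, 3 PN of generation 1 from Lake Victoria and 3 ON of generation about 93 from Manzala in Egypt. Each fish gave one library of total RNA depleted of ribosomal RNA, prepared with a kit that keeps strand and read as paired 75 bp reads. The aligned bases corresponded to 12.1, 11.3 and 13.0 Mio read pairs in the PN libraries and to 13.3, 13.2 and 13.3 Mio in the ON libraries. On average this exceeds the mean number of read pairs that the labels give as generated, and the reason for the excess was not tested. Reads were aligned to a different build in each species (PunNye1.0 in PN, ASM185804v2 in ON) and assembled apart, so species, build, generation and assembled set cannot be told apart in any comparison of PN with ON. The tables give each transcript a serial name and no gene, so neither the liver label nor the function of any transcript was checked against marker genes. The sources do not state how the 3 fish of a species were related.

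Nile tilapia (ON) is a widely farmed African cichlid, and PN is one of the many haplochromine cichlids of Lake Victoria. An assembler such as Stringtie learns the direction of a transcript from the splice sites its reads cross, from the strand recorded in the library, or from a reference gene. A transcript without introns and without such a record is therefore listed without a strand. Genome builds hold long sequences with many genes beside numerous short unplaced sequences, which often carry repeats or pieces that could not be joined to a larger one. A transcript on a sequence of its own has no stranded neighbour to which it could be an extension, an antisense partner or an intron fragment within that sequence.

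Every one of the transcripts had a single exon, in both species, as did all 16201 and 7933 other strandless transcripts. Among the stranded ones, 2155 of 27832 in PN and 2159 of 33084 in ON had a single exon. In PN, 1011 of the 1341 sequences (75.4%) carried just 1 of the transcripts described here, 219 carried 2, 60 carried 3, 26 carried 4 and 25 carried 5 or more. In ON, 194 of the 285 sequences (68.1%) carried 1, 52 carried 2, 27 carried 3, 5 carried 4 and 7 carried 5 or more. The mean was 1.44 per sequence in PN and 1.54 in ON, and the largest number was 20 in PN and 8 in ON. The sequences of both species thus mostly held a lone transcript, while the position of the last transcribed base differed. The last transcribed base lay at a median position of 1846 in PN and 12997 in ON. It lay before base 2000 in 687 PN sequences (51.2%) and in 13 ON sequences (4.56%), and at base 50000 or beyond in 63 and 22 sequences. Lengths of the sequences themselves were not used here, so the last transcribed base is a lower bound on them. These counts describe 1 merged transcript set per species and have no replicate error.

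**Figure D1:**
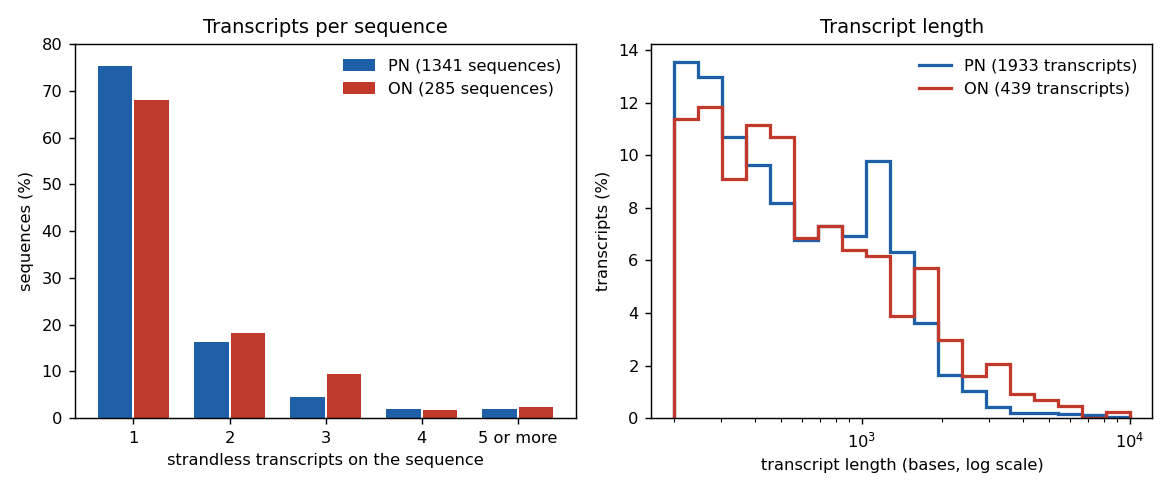
Left, percent of sequences (vertical axis) that carried 1, 2, 3, 4 or at least 5 strandless transcripts and no stranded one, in PN (blue, 1341 sequences) and ON (red, 285 sequences). Right, percent of these transcripts per length bin on a log axis in bases. In both species most sequences carried 1 transcript, and the length distributions started at 200 bases and overlapped over their whole range.

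Transcript length was nearly the same in the 2 species. The median was 487 bases in PN (quartiles 291 and 1009, range 200 to 9331) and 496 bases in ON (quartiles 313 and 1009, range 200 to 9637). The other strandless transcripts had medians of 513 bases in PN and 463 bases in ON. No strandless transcript of either kind was shorter than 200 bases, while stranded ones went down to 71 bases in PN and 66 bases in ON. The 493 PN transcripts of at least 1000 bases (25.5%) carried 74.3% of the aligned bases of all 1933, and the 111 such ON transcripts (25.3%) carried 77.0%. At the short end, 514 PN transcripts (26.6%) and 103 ON transcripts (23.5%) had fewer than 300 bases and carried 4.76% and 0.959% of the aligned bases. Over the mean of the 3 fish, the long transcripts thus held most of the aligned bases in either species. In ON this rested on few of them: 50% lay on 2 transcripts, and the highest, mRNA37613 with 2594 bases, was listed at 0 in ON fish 3.

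Many PN transcripts began at the very start of their sequence. In PN, 311 of the 1933 transcripts (16.1%) began within the first 10 bases, 224 of them at base 1, against 91 of the 16201 other strandless transcripts (0.562%). In ON, 2 of 439 (0.456%) began there, against 4 of 7933 other strandless transcripts (0.0504%). Of the 311 PN transcripts, 244 were the only transcript of their sequence. Their median length was 1109 bases, against 436 bases for the 1622 that began further in. Their median level was 2.45 FPKM, against 1.67 FPKM, where FPKM scales the fragments of a transcript by its length in kilobases and by the Mio fragments mapped in the library. A share of 92.0% of them was above 0 in all 3 PN fish, against 84.6% of those that began further in. Level and detection also rose with length. PN transcripts of at least 1000 bases had a median of 2.32 FPKM and 95.3% above 0 in all 3 fish. Those of 200 to 299 bases had 1.58 FPKM and 77.4%. The part of transcript length in the differences by start was not tested. Position in a sequence is bounded by its length, which was not used here. The last transcribed base lay earlier in the PN sequences, as given above, and the part of sequence length in the share of 16.1% was not tested.

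The longest PN transcript was mRNA41857, 9331 bases at bases 401 to 9731 of NW_005188040.1, with 0.982, 2.40 and 2.08 FPKM in PN fish 1, 2 and 3. On the same sequence followed mRNA41858 with 6244 bases and 1.02, 1.50 and 1.48 FPKM. Both were low, and in both PN fish 1 was the lowest. The 7050 bases of mRNA44208 began at base 2 of NW_005189492.1 and reached 4.39, 5.37 and 11.9 FPKM. The 6674 bases of mRNA44229 began at base 1 of NW_005189526.1 and reached 1.23, 1.75 and 1.88 FPKM, and mRNA43272 with 6156 bases had 1.15, 1.22 and 1.38 FPKM. Of these 5, only mRNA44208 exceeded 3 FPKM in any fish.

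In ON the longest was mRNA37137, 9637 bases at bases 13735 to 23371 of NW_017614146.1, with 2.09, 1.11 and 1.49 FPKM in ON fish 1, 2 and 3. The next were mRNA38347 (6499 bases; 1.74, 1.42 and 1.49 FPKM), mRNA41387 (6081 bases; 2.12, 3.47 and 2.13 FPKM) and mRNA37299 (5196 bases; 1.83, 0.541 and 1.01 FPKM). The fifth, mRNA38085 with 5023 bases, had 1.46, 0.263 and 2.47 FPKM. All 5 were above 0 in every ON fish, and 4 of them stayed under 3 FPKM throughout.

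Where a sequence carried several of the transcripts, none were listed as overlapping. The smallest gap was nearly the same in PN (252 bases) and ON (250 bases). The part of assembly and merging in this was not tested. The 592 neighbouring pairs of PN were separated by a median of 2257 bases (252 to 139482) and the 154 pairs of ON by a median of 5092 bases (250 to 203603). In PN, NW_005187718.1 carried 20 transcripts between bases 58099 and 540350, with mean levels of 0.470 to 22.5 FPKM, and 14 of the 20 were above 0 in all 3 fish. NW_005187694.1 carried 15 (0.604 to 13.2 FPKM, 11 in all 3 fish) and NW_005187813.1 carried 14 (1.26 to 38.2 FPKM, 13 in all 3 fish). These are long sequences with scattered, mostly low transcripts and 1 or a few that stood out, such as mRNA39231 on NW_005187813.1 with 28.7, 38.6 and 47.2 FPKM.

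In ON, NW_017615944.1 carried the most, 8 transcripts between bases 6327 and 324250 with mean levels of 0.568 to 2.38 FPKM. Their summed reads were 303, 57.4 and 255 in ON fish 1, 2 and 3, and 5 of the 8 were above 0 in all 3 fish. ON fish 2 was the lowest of the 3 for 7 of these 8 transcripts, the exception being mRNA39613 with 0, 1.70 and 0 FPKM. NW_017616002.1 carried 7 transcripts (0.564 to 2.51 FPKM), and 5 further sequences carried 5 each. Among those, NW_017614333.1 held 3 of the 10 most abundant ON transcripts beside mRNA37267 (2.22, 1.34 and 5.38 FPKM) and mRNA37270 (1.29, 0.741 and 1.92 FPKM). Its summed reads, 11727, 6824 and 12852, were 8.17, 5.58 and 16.8% of all reads on the ON transcripts described here.

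Most of the transcripts were low, as were most transcripts of the other classes. Their mean level over the 3 fish had a median of 1.76 FPKM in PN (0.463 to 962) and 1.33 FPKM in ON (0.502 to 644), and it was under 2 FPKM for 1085 PN transcripts (56.1%) and 339 ON transcripts (77.2%). Under 2 FPKM were also 68.4% of the other strandless and 57.3% of the stranded transcripts in PN. In ON these were 83.5% and 69.7%. A mean of at least 10 FPKM was reached by 156 PN transcripts (8.07%) and by 22 ON transcripts (5.01%). These shares lay above those of the other strandless transcripts (3.22% in PN and 1.76% in ON). They lay below those of the stranded transcripts (11.4% in PN and 8.37% in ON). At least 100 FPKM were reached by 12 in PN (0.621%) and 4 in ON (0.911%). The other strandless transcripts gave 0.173% and 0.240% there, and the stranded ones 2.08% and 1.62%. All 1933 and all 439 reached at least 1 FPKM in at least 1 fish, as did 16193 of 16201 and 7929 of 7933 other strandless transcripts but only 18428 of 27832 and 16593 of 33084 stranded ones. Nearly all strandless transcripts thus stood at or above 1 FPKM in their highest fish, which bears on every level and detection rate given below.

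Per library, the median level was 1.53, 2.07 and 1.84 FPKM in PN fish 1, 2 and 3 and 1.49, 1.59 and 1.45 FPKM in ON fish 1, 2 and 3. The groups overlapped, and the mean difference of the median log2(FPKM + 1) was 0.16 (PN minus ON, two-sided exact permutation test of 3 against 3, p = 0.20, smallest possible 0.10). Its sign turned to -0.08 when each library was scaled by the 75th percentile of its transcripts above 0. PN fish 1 had the lowest median of the 3 PN fish also among the other strandless (1.42, 1.74 and 1.56 FPKM) and the stranded transcripts (1.25, 1.56 and 1.38 FPKM).

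The transcripts took a small share of each library. They held 0.843, 0.993 and 0.949% of the aligned bases in PN fish 1, 2 and 3, and 0.541, 0.464 and 0.288% in ON fish 1, 2 and 3. The means were 0.928% ± 0.077 in PN and 0.431% ± 0.13 in ON (SD, n = 3 each), and the lowest PN fish lay above the highest ON fish. The difference was 0.497 percentage points (two-sided exact permutation test, p = 0.10, the smallest 3 against 3 allow, and 0.133 after Benjamini-Hochberg adjustment over the 8 comparisons tested). In reads of 75 bases this was 203979, 223944 and 245912 reads in PN and 143463, 122303 and 76702 reads in ON. Without the transcript with the most aligned bases in either species, the shares were 0.729, 0.891 and 0.810% in PN and 0.283, 0.221 and 0.288% in ON, and ON fish 3 was then no longer the lowest. The separation was not particular to these transcripts. The other strandless transcripts held 5.81, 7.01 and 6.85% of the aligned bases in PN and 3.16, 3.92 and 2.65% in ON. PN had 1933 of the transcripts described here and ON 439, and the part of this number in the shares was not tested. The sources used here do not state how a read that aligns at several places enters the aligned bases.

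**Figure D2:**
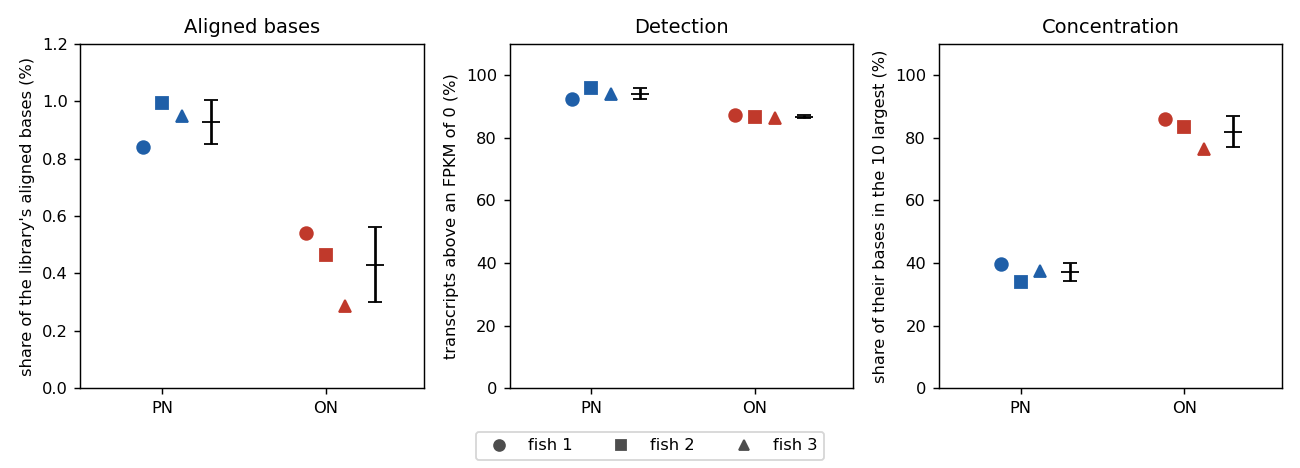
Values per library in PN (blue) and ON (red): percent of aligned bases on strandless transcripts of sequences without stranded ones (left), percent of these transcripts above an FPKM of 0 (middle), and percent of their aligned bases held by the 10 largest of that library (right). Circles, squares and triangles stand for fish 1, 2 and 3, the black bar for the mean and SD of 3 fish. In all 3 panels the 3 PN fish lie apart from the 3 ON fish, with means of 0.928 and 0.431%, 94.1 and 86.7%, and 37.1 and 82.0%.

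The reads were spread over more transcripts in PN. The 10 largest transcripts of each library held 39.8, 34.0 and 37.5% of these reads in PN, against 86.0, 83.5 and 76.5% in ON. The means were 37.1% ± 2.9 in PN and 82.0% ± 4.9 in ON (SD, n = 3 each), a difference of -44.9 percentage points (exact permutation test, p = 0.10). The single largest held 13.5, 10.3 and 14.7% in PN and 47.7, 52.4 and 26.6% in ON. Of the mean aligned bases, 50% lay on 35 transcripts in PN and on 2 in ON, and 90% lay on 654 in PN and on 41 in ON. PN had 1933 transcripts against 439 in ON, so the number of transcripts differs along with this share, and its part in it was not tested. Of the other strandless transcripts, the 10 largest held 37.6% on average in PN (16201 transcripts) and 44.3% in ON (7933 transcripts).

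The most abundant PN transcript was mRNA44117, 1231 bases at bases 5132 to 6362 of NW_005189349.1 and the only transcript of that sequence. It had 923, 827 and 1136 FPKM in PN fish 1, 2 and 3 (962 ± 158, SD, n = 3), which is 27506, 22957 and 36226 reads. Next came mRNA44845 (bases 286 to 1369 of NW_005190550.1) with 349, 531 and 395 FPKM, mRNA45865 (bases 1 to 1092 of NW_005194196.1) with 375, 250 and 394 FPKM, and mRNA45061 (bases 2394 to 3412 of NW_005191008.1) with 238, 218 and 238 FPKM. Each was high in all 3 fish, and none varied by more than 1.58-fold between its lowest and highest fish (FPKM + 1).

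The following PN transcripts reached 101 to 165 FPKM on average. mRNA45966 spanned bases 1 to 1000 of NW_005194635.1 and had 134, 193 and 169 FPKM, and mRNA45167 spanned bases 1 to 2236 of NW_005191403.1 and had 105, 211 and 170 FPKM. mRNA44787 on NW_005190421.1 ran the other way, with 191, 89.1 and 70.3 FPKM. mRNA45699 (bases 1 to 1219 of NW_005193512.1) had 113, 99.4 and 136 FPKM, mRNA43059 on NW_005188459.1 had 104, 131 and 111 FPKM, and mRNA44560 (bases 1 to 1234 of NW_005189981.1) had 138, 94.9 and 70.8 FPKM. Of the 10 most abundant PN transcripts, 5 began at base 1 of their sequence and 7 were the only transcript there. No fish was highest throughout.

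**Figure D3:**
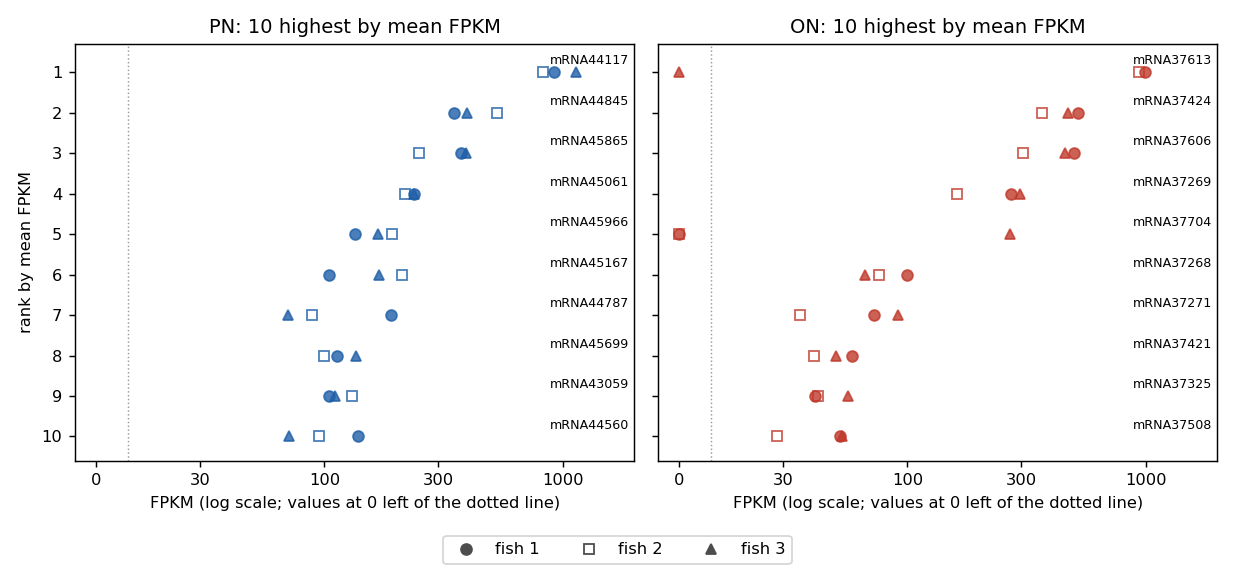
FPKM (log axis) in fish 1 (circles), 2 (open squares) and 3 (triangles) of the 10 transcripts with the highest mean, ranked downward, in PN (left) and ON (right); values listed at 0 are drawn left of the dotted line. All 10 PN transcripts lie within a 2.69-fold range between fish (FPKM + 1), whereas mRNA37613 is listed at 0 in ON fish 3 and mRNA37704 in ON fish 1 and 2.

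In ON the transcript with the highest mean was listed at 0 in 1 fish. mRNA37613, 2594 bases at bases 7813 to 10406 of NW_017614863.1, had 995 FPKM (68459 reads) in ON fish 1 and 936 FPKM (64072 reads) in ON fish 2, and it was listed at 0 in ON fish 3, where 3 reads would have given 0.0434 FPKM. The other transcript of the sequence, mRNA37612 at bases 1992 to 2822, was present in all 3 fish with 9.29, 2.85 and 7.25 FPKM. The zero of ON fish 3 therefore did not extend over the sequence. mRNA37704, 578 bases at bases 12834 to 13411 of NW_017615000.1, was listed at 0 in ON fish 1 and 2 and had 269 FPKM (4139 reads) in ON fish 3.

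The remaining 8 of the ON transcripts with the highest means were present in every fish. mRNA37424 (bases 12368 to 13985 of NW_017614565.1) had 518, 368 and 473 FPKM, and mRNA37606 (bases 15147 to 16006 of NW_017614842.1) had 500, 304 and 459 FPKM. Of the 3 on NW_017614333.1, mRNA37269 had 272, 161 and 297 FPKM, mRNA37268 had 99.9, 76.0 and 66.2 FPKM, and mRNA37271 had 72.2, 35.5 and 91.4 FPKM. ON fish 2 was the lowest for 6 of the 8. mRNA37421 on NW_017614563.1 had 58.6, 40.6 and 50.1 FPKM, mRNA37325 (4242 bases on NW_017614428.1) had 40.9, 42.0 and 56.4 FPKM, and mRNA37508 on NW_017614707.1 had 52.0, 28.5 and 53.2 FPKM.

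Detection above 0 lay higher in each PN fish than in any ON fish. Above 0 were 1787, 1856 and 1816 of the 1933 PN transcripts (92.4, 96.0 and 93.9%) and 383, 380 and 379 of the 439 ON transcripts (87.2, 86.6 and 86.3%). The means were 94.1% ± 1.8 in PN and 86.7% ± 0.47 in ON (SD, n = 3 each), a difference of 7.42 percentage points (exact permutation test, p = 0.10). The same order held for the other strandless transcripts (93.3 to 95.7% in PN and 88.8 to 90.4% in ON) and for the stranded ones (87.1 to 88.7% and 81.6 to 82.8%), so it was shared by all classes of transcript. The separation depended on the threshold. At 1 FPKM or more the fish overlapped, with 66.3, 84.9 and 75.8% in PN and 67.0, 67.2 and 64.2% in ON (exact permutation test, p = 0.30). In all 3 fish, 1659 PN transcripts (85.8%) and 311 ON transcripts (70.8%) were above 0, 208 and 81 were so in 2 fish, and 66 and 47 in 1 fish. Above 0 in all 3 fish were also 87.0% of the other strandless and 75.7% of the stranded transcripts in PN, and 75.9% and 66.2% in ON. At a level of at least 1 FPKM in all 3 fish, 953 PN transcripts (49.3%) and 147 ON transcripts (33.5%) remained. At that level 44.9% of the other strandless and 45.4% of the stranded transcripts remained in PN, and 26.0% and 32.7% in ON. Median depth was 19.3, 27.3 and 24.9 reads per transcript in PN and 19.2, 20.6 and 16.7 reads in ON, and 3 reads corresponded to 0.0124 to 0.665 FPKM in PN and 0.0117 to 0.569 FPKM in ON, by length.

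Values of 0 were unevenly shared among the PN fish. Listed at 0 only in PN fish 1, 2 and 3 were 113, 28 and 67 transcripts, and only in ON fish 1, 2 and 3 were 25, 34 and 22. Seen in a single fish were 33, 17 and 16 PN transcripts and 16, 22 and 9 ON transcripts. The other strandless transcripts showed the same order in PN, with 780, 378 and 452 at 0 only in fish 1, 2 and 3. Longer transcripts were detected more often: above 0 in all 3 fish were 77.4, 79.3, 91.7 and 95.3% of the PN transcripts of 200 to 299, 300 to 499, 500 to 999 and at least 1000 bases, and 61.2, 67.2, 69.8 and 84.7% of the ON transcripts.

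Within a library, the transcripts lay slightly above the other strandless ones. The median log2(FPKM + 1) was higher by 0.07, 0.17 and 0.15 in PN fish 1, 2 and 3 and by 0.09, 0.05 and 0.11 in ON fish 1, 2 and 3, on average by 0.11. It was higher in 6 of 6 libraries (two-sided exact sign-flip permutation test, p = 0.031, the smallest 6 libraries allow; 0.125 after Benjamini-Hochberg adjustment over the 8 comparisons tested). The sign was the same when the comparison was limited to strandless transcripts outside every stranded span (0.07), to those on sequences with at least 50 stranded transcripts (0.12) and to lengths of 200 to 1000 bases (0.10). The PN and ON values of this difference overlapped (exact permutation test, p = 0.30). The 3 libraries of a species score the same fixed transcripts. The sign-flip p here and in the comparisons below thus measures agreement between fish and not the spread over transcripts.

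The share above 0 was close to that of the other strandless transcripts in PN, with differences of -0.89, 0.32 and -1.0 percentage points, and lower in ON, with -2.15, -3.85 and -2.47 points. The mean of -1.67 points did not pass the test (sign-flip permutation test, p = 0.0625). Its sign depended on the threshold: it was 0.593 points when a transcript had to exceed the floor of 3 reads and 4.33 points at 1 FPKM or more, where all 6 libraries were higher (exact p = 0.031).

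Against the stranded transcripts, which have medians of 2271 bases in PN and 2422 bases in ON, the median log2(FPKM + 1) was higher by 0.17, 0.27 and 0.26 in PN fish 1, 2 and 3 and by 0.70, 0.76 and 0.68 in ON fish 1, 2 and 3 (mean 0.47, sign-flip permutation test, p = 0.031; adjusted 0.125). The sign turned when only transcripts of at least 1 FPKM in all 3 fish were compared (-0.59, exact p = 0.031). The direction of this comparison thus depended on the filter. Stranded transcripts had no minimum of 1 FPKM in their highest fish, as given above, and the part of this in the direction was not tested.

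Some transcripts were well covered in one fish and practically missing in another of the same species. With at least 100 reads in one fish and fewer than 3 in another, there were 28 of the 448 PN transcripts that reached 100 reads (6.25%). This held for 3.97% of the 2846 other strandless transcripts of PN and for 7.04% of all 17321 PN transcripts of that depth. In ON there were 13 of 85 (15.3%), against 9.95% of 1206 other strandless transcripts and 9.24% of all 14779 ON transcripts of that depth. The PN share was thus near that of all transcripts, and the ON share rested on few transcripts. At 50 reads or more the counts were 61 of 788 in PN (7.74%, against 8.75% of all transcripts) and 32 of 158 in ON (20.3%, against 12.4%). At 1000 reads or more they were 1 of 35 in PN (against 2.97%) and 2 of 12 in ON (against 2.63%). The depth needed for the count selects the fish in which a transcript is high, so the counts are a description.

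In PN the missing fish was most often fish 1. It had fewer than 3 reads for 21 of the 28, against 7 for fish 2 and 4 for fish 3, and it was the only such fish for 19. Among all PN transcripts counted this way, fish 1 had fewer than 3 reads for 602 of 1220, against 478 and 519. Those 19 had lengths of 690 to 2955 bases, and 9 of them were listed at 0. Over the whole library PN fish 1, 2 and 3 had 12.1, 11.3 and 13.0 Mio read pairs, but on the transcripts described here fish 1 had the fewest reads (203979, against 223944 and 245912). Fish 1 also had the fewest reads on the other strandless transcripts (1406918, against 1580391 and 1773051). On the stranded transcripts it did not (22120976, against 20207250 and 23305698). The part of depth in the missing values was not tested. Of the 28, 11 began within the first 10 bases of their sequence (11 of the 138 such transcripts that reached 100 reads, 7.97%), and 17 began further in (17 of 310, 5.48%).

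The PN transcripts with the widest range were of this kind. mRNA45101, 2955 bases from base 12 of NW_005191140.1, had 0.0276, 0.678 and 33.0 FPKM in PN fish 1, 2 and 3, which is 2, 45 and 2525 reads. mRNA45020 on NW_005190922.1 was listed at 0 in fish 1 and had 26.4 and 30.6 FPKM in fish 2 and 3. mRNA43549 on NW_005188787.1 had 0.0400, 30.3 and 16.8 FPKM. In these 3 the low fish was fish 1. The pattern was another in mRNA41233 (205 bases on NW_005187959.1), with 6.02, 0 and 22.2 FPKM, and in mRNA45481 (bases 1 to 1474 of NW_005192552.1), with 23.3, 0.571 and 0.0524 FPKM or 831, 19 and 2 reads.

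Of the 28 transcripts, some shared their sequence with others of the set. On the 11 such PN sequences, the summed reads were lowest in fish 1 on 7 and in fish 2 on 4. The 4 sequences given next were chosen after their values were seen. NW_005189040.1 carried 4 transcripts between bases 7 and 9418, with summed reads of 42.3, 576 and 528 in PN fish 1, 2 and 3. mRNA43846 had 9, 192 and 142 reads, mRNA43847 had 0, 111 and 114 reads, mRNA43848 had 2, 165 and 179 reads, and mRNA43849 had 31, 109 and 94 reads. All 4 were lowest in fish 1. On NW_005191001.1, mRNA45052 and mRNA45053 had 0.0721, 6.43 and 9.38 FPKM and 0.487, 12.0 and 12.6 FPKM. Other sequences ran the other way, with summed reads of 149, 3.99 and 19.9 on the 2 transcripts of NW_005188089.1 and of 314, 71.1 and 135 on the 6 of NW_005188028.1. Summed over whole sequences, 17 of the 451 PN sequences with at least 100 reads in one fish had fewer than 3 in another (3.77%), 13 of them in fish 1. Among all 1602 PN sequences of that depth, where the stranded transcripts of larger sequences enter the sum, 2.0% did. In ON 7 of 86 sequences did (8.14%), against 3.98% of all 452. The sequences described here are part of these totals and carry few transcripts each, and the part of that in the shares was not tested.

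**Figure D4:**
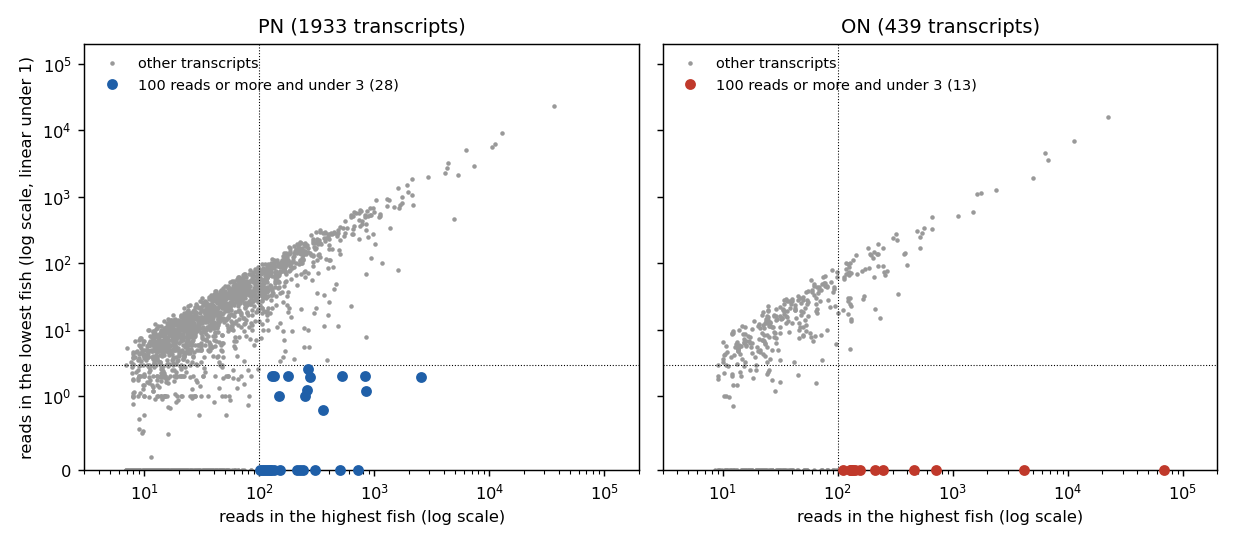
Reads (coverage times length over 75 bases) of each strandless transcript on a sequence without stranded ones, in its highest fish (horizontal log axis) and its lowest fish (vertical axis, log above 1 and linear below), for PN (left, 1933 transcripts) and ON (right, 439). Coloured points had at least 100 reads in one fish and fewer than 3 in another (dotted lines), 28 in PN and 13 in ON; in ON all 13 are listed at 0 in their lowest fish, and mRNA37613 is the point farthest right.

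In ON the 13 transcripts did not favour a fish. ON fish 1, 2 and 3 had fewer than 3 reads for 7, 7 and 6 of them, and 7 of the 13 were missing in 2 fish. All 13 were listed at 0 in their lowest fish. Beside mRNA37613 and mRNA37704, the widest ranges were those of mRNA37507 (bases 767 to 1750 of NW_017614707.1) with 0, 27.5 and 0 FPKM, mRNA37287 (1190 bases on NW_017614352.1) with 14.5, 0 and 0 FPKM, and mRNA41413 (386 bases on NW_017616385.1) with 0, 0 and 13.8 FPKM. Each was present in a single and different fish. mRNA37507 shared its sequence with mRNA37508, which was present in all 3 fish and lowest in the one where mRNA37507 was seen (52.0, 28.5 and 53.2 FPKM). That fish, ON fish 2, was also the lowest for most of the abundant ON transcripts present in every fish, as given above.

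How variation between fish compared between the species depended on the setting. The SD over the 3 fish of log2(FPKM + 1) had a median of 0.460 in PN and 0.512 in ON. Among the other strandless transcripts it was 0.403 and 0.513. With a pseudocount of 0.1 the medians of the transcripts described here were 0.683 in PN and 0.862 in ON. At 1 FPKM or more in all 3 fish they were 0.314 and 0.271. Across the 1933 PN transcripts, which are not independent replicates, the Spearman correlation of FPKM was 0.43 between fish 1 and 2, 0.46 between fish 1 and 3 and 0.66 between fish 2 and 3. Across the 439 ON transcripts it was 0.10, 0.36 and 0.19 for the same pairs. The other strandless transcripts gave 0.38, 0.43 and 0.54 in PN and -0.003, 0.30 and 0.07 in ON, and the stranded ones 0.82 to 0.85 in PN and 0.78 to 0.81 in ON. On the log2(FPKM + 1) scale the Pearson correlation was 0.68, 0.68 and 0.82 across the PN transcripts and 0.64, 0.64 and 0.52 across the ON transcripts, above the rank correlation in each pair. Strandless transcripts stand in the tables with at least 1 FPKM in their highest fish, which was not so for the stranded ones, so the correlations of the 2 classes are not on equal terms.

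Close neighbours deviated together in PN. For pairs of neighbours less than 2000 bases apart, the Pearson correlation of their deviations from their own means in log2(FPKM + 1) was 0.60, 0.49 and 0.39 in PN fish 1, 2 and 3, over 271 pairs. In ON it was -0.06, 0.11 and 0.14, over 49 pairs. The other strandless transcripts gave 0.47, 0.40 and 0.38 in PN (2421 pairs) and 0.51, 0.45 and 0.50 in ON (1119 pairs). At gaps of 2000 bases or more the correlations were 0.07, 0.04 and 0.03 in PN and 0.06, -0.04 and -0.10 in ON. Neighbours share a library and a stretch of sequence, and 3 deviations of a transcript add up to 0, so these values are a description.

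A last measure set the ON transcripts apart from the other strandless transcripts of the same libraries. Coverage times length gives the bases aligned to a transcript, which is a whole number when each aligned read counts in full. Of the transcripts above 0 whose deposited digits allow the check, the number of bases was whole (within 0.1) for 57.4, 57.2 and 56.3% in PN fish 1, 2 and 3 and for 25.3, 27.0 and 28.0% in ON fish 1, 2 and 3. The other strandless transcripts gave 57.5, 56.8 and 55.6% in PN and 61.3, 62.5 and 62.1% in ON. The differences were -0.004, 0.474 and 0.735 percentage points in PN and -36.0, -35.5 and -34.1 points in ON. Over all 6 libraries the mean was -17.4 points (sign-flip permutation test, p = 0.22), and the 2 species differed by 35.6 points (exact permutation test of 3 against 3, p = 0.10, the smallest possible).

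The difference in ON was also seen at like depth. Among transcripts of 10 to 50 reads, 23.3, 28.1 and 29.0% were whole in ON, against 59.3, 60.9 and 59.3% of the other strandless transcripts, and 54.4, 56.4 and 54.1% in PN, against 54.3, 55.0 and 52.4%. At 50 reads or more, 21.0, 17.6 and 19.6% were whole in ON fish 1, 2 and 3, against 52.4, 54.7 and 55.2% of the other strandless transcripts. This band is set by reads, so long transcripts of low FPKM enter it too. The tables used here do not record how single reads were counted. This comparison was chosen after the data were seen.

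**Figure D5:**
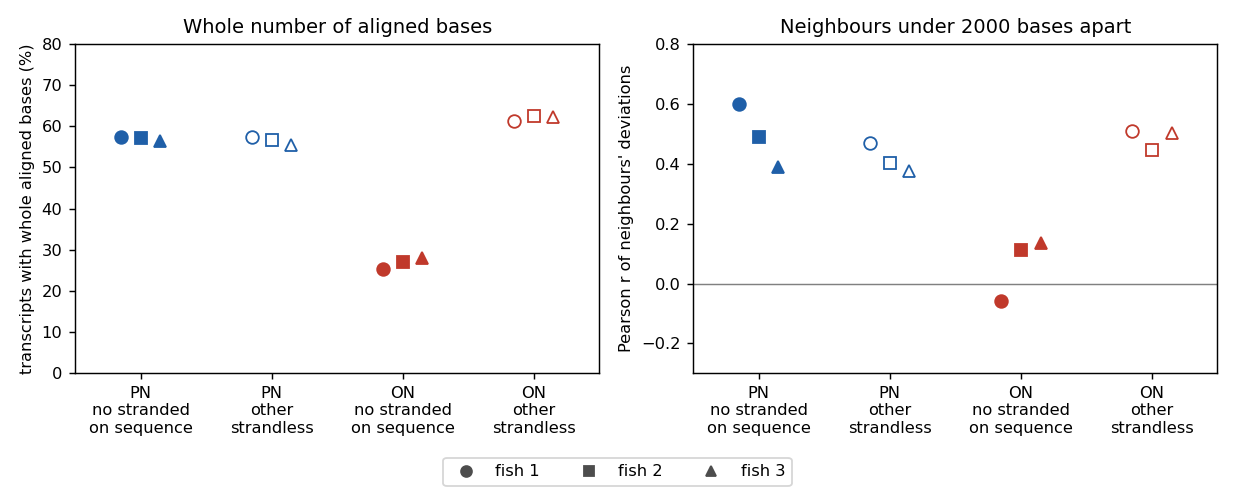
Left, percent of transcripts above 0 with a whole number of aligned bases, and right, Pearson correlation of the deviations of neighbouring transcripts less than 2000 bases apart, in PN (blue) and ON (red). Filled symbols are strandless transcripts on sequences without stranded ones, open symbols the other strandless transcripts, and circles, squares and triangles fish 1, 2 and 3. The filled ON symbols lie at 25.3 to 28.0% and at -0.06 to 0.14, below the open ON symbols at 61.3 to 62.5% and 0.45 to 0.51, while filled and open PN symbols lie side by side on the left.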

How the data were processed

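Liver libraries of 3 PN and 3 ON males were analysed. Per the labels and the methods of the study, the authors aligned reads with HISAT2 2.1.0, assembled them with StringTie and the reference annotation, merged the sets of a species, and removed unexpressed and duplicated transcripts. The methods also describe that very similar transcripts of a locus were clustered and merged. The sets used here still listed 79 PN and 263 ON stranded transcripts that were above 0 in no fish. The authors deposited a coverage (mean depth per base) and an FPKM for every transcript of the merged set, but not read counts, and count models were therefore not applied. Coverage divided by FPKM gave 1 constant per library, from which aligned bases were computed. Reads are coverage times length over 75 bases, and a floor is the FPKM of 3 reads. Floors cover counting error only.

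Groups came from the sample labels. The members (strandless transcripts on sequences without stranded ones), lists and tests were chosen with earlier results of these data known. In each species the text names the 10 members with the highest mean FPKM, the 5 longest, those of the 3 sequences with the most members (by range and count where over 5), and the 5 with the largest ratio between fish (FPKM + 1, at least 100 reads in 1 fish). mRNA43846, mRNA43847, mRNA43848, mRNA43849, mRNA45052, mRNA45053, mRNA37612, and mRNA39231 and mRNA39613 among sequences given by range, were chosen after their values were seen. log2 values use a pseudocount of 1. Values per library were compared by exact permutation tests, 8 in all. Fish are separate animals, and no technical repeat was used. No sequence is printed, since no genome of either build was used here. Alternatives covered pseudocount, filters, scaling, comparison sets and leaving out each library. The classification, the p-values and the counts of missing fish were checked on simulated data (600 transcripts, 100 tests and 500 transcripts, 0 wrong). The software was matplotlib 3.10.9, scipy 1.17.1, pandas 2.3.3 and numpy 2.4.6 under Python 3.11.15.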

Additional observations from a re-analysis of the deposited data

How the results depend on the processing

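Among tests over all 6 libraries, which could pass the threshold, 12 recomputed values kept their direction and their side of it and 3 changed sign. The 37 recomputed differences of 3 against 3 fish, blocks included, that kept their direction could pass under no setting, so their side of the threshold says nothing about stability. In all, the sign changed for the median level of PN minus ON under 75th percentile scaling (-0.0766, against 0.160), for the share above 0 against other strandless transcripts above the floor of 3 reads (0.593 points) and at 1 FPKM or more (4.33 points, against -1.67), and for the median level against stranded transcripts at 1 FPKM or more in all 3 fish (-0.59, against 0.47). Leaving out 1 library leaves 5 differences, with a smallest p of 0.0625. All 12 that lost the threshold were of this kind, the level against other strandless transcripts (0.0932 to 0.116) and against stranded transcripts (0.414 to 0.531). Without 1 library, the difference in aligned bases was 0.426 to 0.552 points. The shares detected in PN and ON fish overlapped at 1 FPKM or more (mean difference 9.55 points, against 7.42 above 0). At 1 FPKM or more in all 3 fish, 953 PN and 147 ON transcripts were left of 1659 and 311 above 0. Transcripts well covered in one fish and missing in another numbered 61 of 788 in PN (all transcripts 8.75%) and 32 of 158 in ON (all 12.4%) at 50 reads, and 1 of 35 in PN (all 2.97%) and 2 of 12 in ON (all 2.63%) at 1000 reads. The median SD over fish in ON was 0.862 with a pseudocount of 0.1 and 0.271 at 1 FPKM or more in all 3 fish, against 0.512. In PN it was 0.683 and 0.314 under the same settings, against 0.460. Replicate numbers mark different fish and pair no samples. With the replicate number as a replicate block, the difference in aligned bases (0.497 points) had an exact permutation p = 0.25, the smallest 3 pairs allow. With at most 27.3 reads at the median transcript, absence of low transcripts in a fish could not be told apart from depth.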
